A study of Mus musculus with 16 samples.

Results

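Imprinted genes are expressed mainly from 1 of the parental chromosomes, because DNA methylation laid down in egg or sperm marks the copies differently at control regions. Most of them lie in clusters that hold such control regions. Several act on fetal and placental growth (the growth factor Igf2 against the growth restrictors Cdkn1c, Phlda2, Grb10 and Igf2r). In embryonic stem (ES) cells the marks of imprinted genes are known to drift during culture. In the early embryo the marks are kept by the zinc finger protein ZFP57 with its partner TRIM28 and by the maintenance methyltransferase DNMT1. The set described here holds 41 named genes, chosen by gene symbol, of which 36 had at least 1 probe on the array: 58 of 25697 probes. No probe carried the symbol H19, Meg3, Zdbf2, Copg2 or Zrsr1 in the annotation used here. Genes were grouped by chromosomal cluster and by the parental copy each is known to express. That assignment is textbook background for mouse, in several cases valid only in certain tissues, and the arrays do not tell parental copies apart.

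RNA was measured on Illumina bead arrays in mouse ES cells grown with serum and LIF on gelatin. There were 4 groups of 3 biological replicates: wild-type CCE cells left untreated; wild-type cells given sodium chlorate (NaClO3), a blocker of heparan sulfate sulfation, at 20 mM for 24 hours; wild-type cells given SU5402, an inhibitor of FGF receptor kinases, at 5 µM for 24 hours; and untreated cells of the line labelled Ndst1/2-/-, which lacks a pair of enzymes that N-sulfate heparan sulfate. A technical duplicate array of replicate 3 in each group was averaged with its partner. Ndst1/2-/- cells are a line of their own, so genotype and the history of the line cannot be told apart. The labels do not give the number of clones, nor state that replicates were started separately, so p-values measure the spread between these cultures. All 4 groups share the medium, LIF and substrate, and the chlorate, SU5402 and Ndst1/2-/- comparisons share the same 3 untreated wild-type cultures.

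Promoter sequence of 5 members is shown to give the genes of the main results a place in the genome. Sequences are RefSeq's for build GRCm38.p6 (250 bases before to 50 after a transcript start, 300 bases in all), and capitals mark TGCCGC or its reverse complement GCGGCA, the core of the motif that ZFP57 recognises when methylated. Igf2 and Phlda2 are the growth genes of distal chromosome 7 with opposite parental expression, Mest and Grb10 fell in all 3 comparisons with untreated wild type, and Nnat was the gene of chromosome 2 that dropped below background in Ndst1/2-/- cells. The windows are chr7:142661222-142661521 on the minus strand for Igf2 (of 4 annotated starts), chr7:143502475-143502774 on the minus strand for Phlda2, chr6:30737800-30738099 on the plus strand for Mest, chr2:157559828-157560127 on the plus strand for Nnat and chr11:12037371-12037670 on the minus strand for Grb10. Of genes with several starts, the one with most matches is shown.
Igf2: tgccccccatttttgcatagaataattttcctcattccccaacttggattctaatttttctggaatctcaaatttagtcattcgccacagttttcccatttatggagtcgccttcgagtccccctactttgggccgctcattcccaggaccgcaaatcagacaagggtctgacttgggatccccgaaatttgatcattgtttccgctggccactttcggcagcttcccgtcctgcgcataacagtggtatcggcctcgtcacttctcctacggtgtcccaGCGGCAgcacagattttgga
Phlda2: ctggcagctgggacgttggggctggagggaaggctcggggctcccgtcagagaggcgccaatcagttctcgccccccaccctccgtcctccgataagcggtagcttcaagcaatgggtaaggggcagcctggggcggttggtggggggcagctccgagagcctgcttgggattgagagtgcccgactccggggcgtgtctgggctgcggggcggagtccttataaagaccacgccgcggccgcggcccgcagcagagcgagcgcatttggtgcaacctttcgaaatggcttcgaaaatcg
Mest: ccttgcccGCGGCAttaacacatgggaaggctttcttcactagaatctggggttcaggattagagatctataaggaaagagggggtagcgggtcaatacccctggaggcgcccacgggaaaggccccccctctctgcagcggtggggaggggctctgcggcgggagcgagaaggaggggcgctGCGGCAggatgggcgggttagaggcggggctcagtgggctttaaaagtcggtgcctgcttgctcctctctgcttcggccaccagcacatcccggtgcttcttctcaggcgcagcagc
Nnat: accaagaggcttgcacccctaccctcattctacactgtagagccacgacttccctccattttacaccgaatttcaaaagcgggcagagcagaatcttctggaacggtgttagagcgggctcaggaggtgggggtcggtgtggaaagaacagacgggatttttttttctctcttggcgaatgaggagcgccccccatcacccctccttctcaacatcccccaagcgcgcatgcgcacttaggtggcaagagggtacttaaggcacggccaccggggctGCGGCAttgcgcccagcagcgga
Grb10: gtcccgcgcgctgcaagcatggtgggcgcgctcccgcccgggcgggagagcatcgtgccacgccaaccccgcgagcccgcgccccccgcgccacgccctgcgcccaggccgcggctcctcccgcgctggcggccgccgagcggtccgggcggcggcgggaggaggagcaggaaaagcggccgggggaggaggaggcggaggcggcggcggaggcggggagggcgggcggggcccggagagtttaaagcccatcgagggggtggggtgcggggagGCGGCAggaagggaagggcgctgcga

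The hexamer, searched on both strands, was present in 13 of 49 RefSeq promoters of the members (26.5%) and in 3813 of all 32851 promoters of that length (11.6%). Promoters of the members were also richer in CpG, with a median of 17 CpG per window against 7 over all promoters. At the gene level 12 of the 32 members with an entry held it (37.5%), against 3527 of all 27025 genes (13.1%). Of 17 members with an entry and a tested probe 5 held it: Igf2, Mest, Nnat, Grb10 and Snrpn. Cdkn1c, Peg10 and Impact had no entry. Not every start of Igf2, Mest, Grb10 and Snrpn held it. No window of Phlda2, Cd81, Tssc4, Peg3, Ndn, Mkrn3, Ube3a, Dlk1, Dio3, Ppp1r9a, Igf2r or Gnas did. These are matches of letters only, and binding was not measured.

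Across the arrays 12022 to 12821 probes were detected. Tests were run on the 13377 probes that 3 or more of the 12 cultures detected (detection p-value below 0.01, averaged over duplicate arrays). Mean intensity was 412 to 454 on the arrays of replicate 1 and the first array of replicate 3, and 369 to 400 on the others, so a brighter and a dimmer array set each held 2 arrays of every group. All 75 values called over 5 comparisons had the same direction in both sets. With only 2 arrays a group 55 were called in the brighter set alone and 58 in the dimmer. The 75 were chosen on these same arrays, and replicate 3 of every group has an array in both sets. Agreement in direction was therefore likely beforehand and is no independent support. Duplicate arrays of 1 culture differed by a root mean square of 0.176 to 0.190 on the log2 scale over tested probes. Arrays of different cultures of a group differed by 0.170 to 0.213. These ranges do not separate technical from culture spread: each duplicate pair spanned both array sets, and culture pairs lay within or across them. Markers of ES cells were detected for 10 of 10 genes on all arrays of every group, but their levels changed. Of their 18 tested probes 9 rose and 6 fell with chlorate (83.3% called, against 28.4% of all probes). With SU5402 8 rose and 5 fell (72.2%, against 23.5%), and in Ndst1/2-/- cells 7 rose and 6 fell (72.2%, against 62.7%). Of 9 fibroblast markers 7 were on no array of any wild-type group and 9 on no Ndst1/2-/- array. No probe carried the symbol Ndst1 or Ndst2 in the annotation used here, so the Ndst1/2-/- label could not be checked on the targeted genes.

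Of the 58 imprinted gene probes, 28 were tested, standing for 21 genes, and 25 of them were detected on all 16 arrays. The other 3, for Dlk1, Nnat and Dio3, passed through the groups where they were high. Of the 30 probes that were not tested, 28 were detected on no array. Genes without a tested probe were Ascl2, a placental transcription factor, the potassium channel Kcnq1, Rtl1, Zim1, Usp29, Magel2, Peg12, Sgce, Asb4, Calcr, Nap1l5, Plagl1, Rasgrf1, Gatm and Dcn. For Ascl2 1 untreated array and 2 chlorate arrays passed detection, and no other. The 30 probes that failed read between 4.18 and 5.13 on the log2 scale in every culture, and nothing can be said of their change at this signal.

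Values are log2 intensities after background correction, and errors are limma's moderated standard errors (SE), from 1 fit of the 4 groups with 3 cultures each. Because groups are of equal size, a probe has the same SE in every comparison. A probe was called at a Benjamini-Hochberg adjusted p under 0.05 over all 13377 probes. Changes of weak probes are understated, since a constant of 16 was added before the log.

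In Ndst1/2-/- cells 24 of the 28 probes differed from untreated wild type, 5 higher and 19 lower (85.7% called), while 62.7% of all tested probes were called, 30.4% higher and 32.2% lower. The median log2 fold change of the 28 was -0.57, against 6e-04 over all tested probes. Both drugs moved fewer: with chlorate 5 rose and 8 fell (46.4%, against 28.4% of all probes with 14.2% in each direction), and with SU5402 6 rose and 9 fell (53.6%, against 23.5% with 11.9% higher and 11.6% lower). Median changes with the drugs were -0.021 for chlorate and -0.0195 for SU5402. Changes of at least 2-fold were called for 7 probes in Ndst1/2-/- cells (9.01% of all probes), for 1 with chlorate (1.28%) and for 0 with SU5402 (0.815%) by limma, which called 15 at any size there. The F-test over the 4 groups called 23 of the 28 (82.1%, against 69% of all probes).

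**Figure D1:**
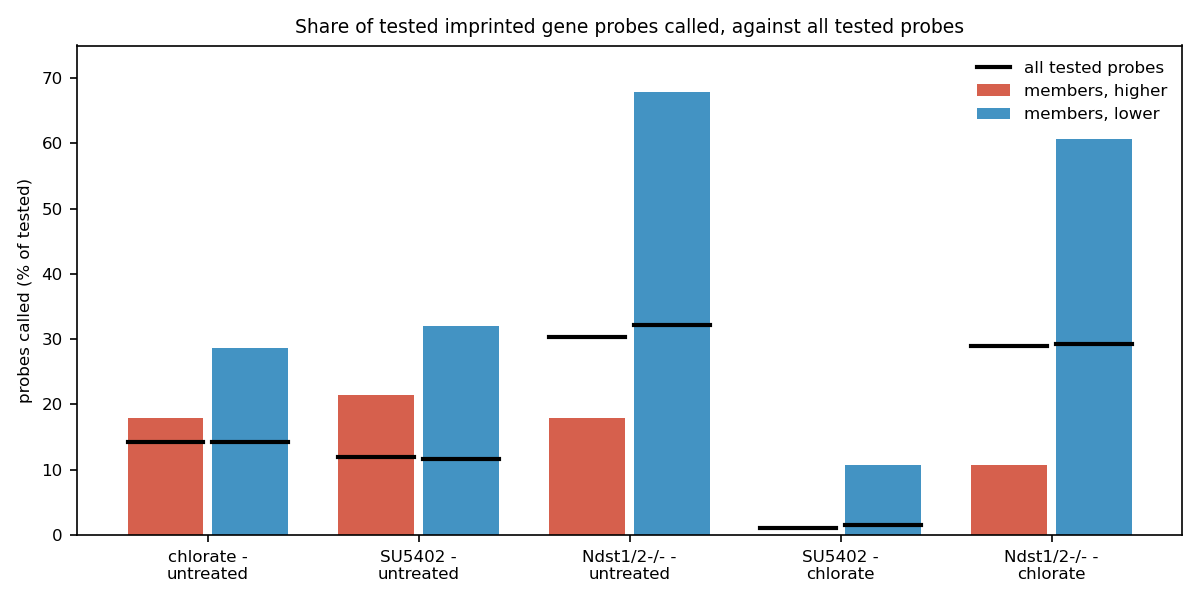
Share of the 28 tested imprinted gene probes called higher (red bars) or lower (blue bars) at an adjusted p under 0.05, in percent, for 5 comparisons; black lines give the same share over all 13377 tested probes. In Ndst1/2-/- cells against untreated wild type 67.9% were lower and 17.9% higher.

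By parental copy, all 14 tested probes of paternally expressed genes were called in Ndst1/2-/- cells. Of these 2 were higher (Dio3 and Peg3) and 12 lower, with a median log2 fold change of -0.83. Only 11 of the 14 were detected on all 16 arrays, against 14 of 14 for maternally expressed genes. Dlk1, Nnat and Dio3 passed the filter through groups where they were high, so the filter itself favoured their calls. Of the 14 probes of maternally expressed genes 3 were higher, 7 lower and 4 not called, with a median of -0.12. The 3 higher probes (Cd81, Ppp1r9a and Ube3a) and the 4 not called (Tssc4, Ube3a and Gnas) are of genes imprinted only in certain tissues. So are Nap1l4 and the Gnas probe among the 7 lower. The others of the 7 were Cdkn1c, Phlda2, Igf2r and Grb10, the last of them paternally expressed in neurons. Imprinting in these ES cells was not measured. The shares called were 100% for paternally and 71.4% for maternally expressed genes, against 62.7% of all probes. The difference between the copies was not tested. With chlorate the paternally expressed probes had 3 higher and 6 lower (64.3%) and the maternally expressed ones 2 and 2 (28.6%). The maternal share was near the 28.4% of all probes called with chlorate. With SU5402 the counts were 3 and 6 (64.3%) against 3 and 3 (42.9%), and 23.5% of all probes were called. Probes of 1 gene, and genes of 1 cluster, are not independent.

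**Figure D2:**
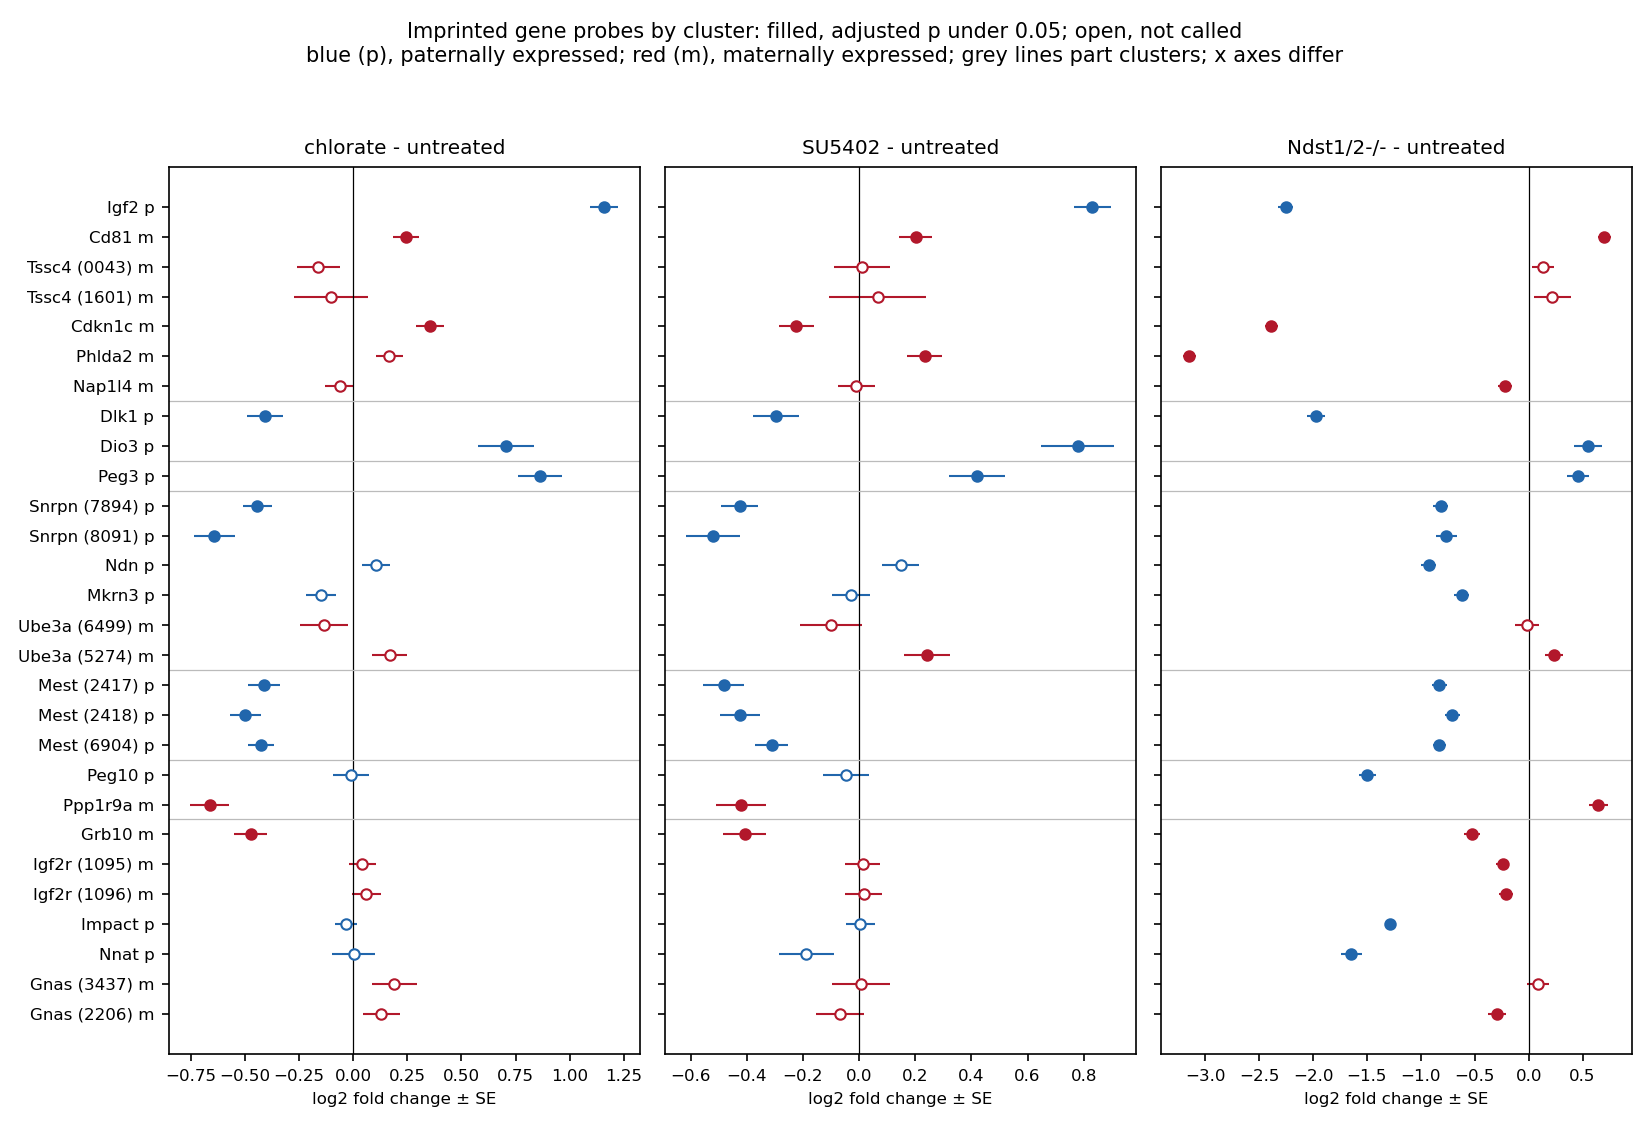
Log2 fold change ± SE of each tested imprinted gene probe against untreated wild type, for chlorate, SU5402 and Ndst1/2-/-, ordered by cluster; filled circles are called, blue is paternally and red maternally expressed, numbers in brackets are the last digits of the probe name, and x axes differ between panels. Igf2 lies to the right for both drugs and to the left for Ndst1/2-/-.

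The distal chromosome 7 cluster, grouped here by position and not by control region, held the largest changes among the members. Its genes did not move together: in Ndst1/2-/- cells paternally expressed Igf2 and maternally expressed Cdkn1c and Phlda2 fell 4.77-fold, 5.23-fold and 8.86-fold, while Cd81 rose. With chlorate the tested members that were called all rose. Of its 7 tested probes 3 rose and 0 fell with chlorate (42.9%, against 28.4% of all probes), 3 rose and 1 fell with SU5402 (57.1%, against 23.5%), and 1 rose and 4 fell in Ndst1/2-/- cells (71.4%, against 62.7%).

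Igf2 (ILMN_2597769), the fetal growth factor expressed from the paternal copy, read 9.14, 9.10 and 9.06 in the untreated cultures, 10.27, 10.22 and 10.28 with chlorate, 9.79, 9.97 and 10.03 with SU5402, and 6.80, 6.87 and 6.87 in Ndst1/2-/- cells. Every drug-treated culture lay above, and every Ndst1/2-/- culture below, all untreated ones. Its log2 fold change was 1.16 ± 0.066 with chlorate (limma adjusted p = 8.87e-08), 0.83 with SU5402 (2.41e-06) and -2.26 in Ndst1/2-/- cells (2.72e-11). Within the brighter and the dimmer array set the Ndst1/2-/- change was -2.35 and -2.13.

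Cdkn1c (ILMN_2708203), a cyclin-dependent kinase inhibitor expressed from the maternal copy, read 10.50, 10.62 and 10.59 untreated, 10.85, 10.97 and 10.95 with chlorate, 10.30, 10.33 and 10.41 with SU5402, and 8.20, 8.10 and 8.25 in Ndst1/2-/- cells. The drugs thus lay on opposite sides of untreated cells, and no groups overlapped. It rose with chlorate by 0.36 ± 0.063 (adjusted p = 0.00105) and fell by 2.39 in Ndst1/2-/- cells (1.24e-11). With SU5402 the change was -0.22 (0.0214), a call lost without untreated replicate 2 or 3 or SU5402 replicate 1 or 2 (adjusted p 0.0597 to 0.0741), with the authors' processed values (0.0636) and in either array set alone. The chlorate call was lost in the dimmer set alone (0.0523).

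Phlda2 (ILMN_2425029), a restrictor of placental growth expressed from the maternal copy, read 10.65, 10.70 and 10.80 untreated, 10.84, 10.96 and 10.86 with chlorate, 10.9999, 10.91 and 10.94 with SU5402, and 7.57, 7.64 and 7.50 in Ndst1/2-/- cells. The Ndst1/2-/- cultures were lowest by a wide margin, with a log2 fold change of -3.15 ± 0.063 (adjusted p = 1.41e-12). With chlorate it was 0.17 (0.0665, and 0.0488 without untreated replicate 3). With SU5402 it was 0.23 (0.0173), which missed the threshold without untreated replicate 1 or 2 or SU5402 replicate 1 (0.0502 to 0.065) and was lost under median scaling (0.179) and in either array set alone, with 0.15 in the dimmer one. The chlorate value passed with no background correction and with offset 50.

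Cd81 (ILMN_2631093), a tetraspanin of the cell surface imprinted in placenta, went the other way in Ndst1/2-/- cells. It read 12.77, 12.75 and 12.76 untreated, 13.02, 13.03 and 12.97 with chlorate, 13.07, 12.94 and 12.88 with SU5402, and 13.41, 13.51 and 13.48 in Ndst1/2-/- cells. All cultures of the other groups were above untreated ones. The log2 fold changes were 0.24 ± 0.059 (adjusted p = 0.00794), 0.20 (0.0264) and 0.70 (3.85e-07). Under median scaling instead of quantile normalization the chlorate and SU5402 changes were 0.15 and 0.13 and not called, nor was either called in 1 array set alone. The SU5402 call was also lost without any of the untreated cultures or SU5402 replicate 1 or 2 (0.0539 to 0.0998).

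Nap1l4, a histone chaperone next to Phlda2 and imprinted in placenta, differed little: the log2 fold change was -0.22 ± 0.065 in Ndst1/2-/- cells (adjusted p = 0.0101, 0.0504 without Ndst1/2-/- replicate 2, lost under median scaling, and -0.13 and not called in the brighter array set alone) and not called with either drug (-0.063 and -0.0096). Both probes of Tssc4 were called in none of the comparisons with untreated wild type, with changes between -0.16 and 0.22.

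Genes that neighbour these members, chosen after their values were seen, also went both ways. Tspan32, a tetraspanin gene beside Cd81, was detected on 4 of 4 Ndst1/2-/- arrays and 0 of 4 untreated arrays, and was at least 4.20-fold higher (adjusted p = 1.27e-09). Such a bound sets the brighter group against the lowest signal of a detected probe on each array of the dimmer group. Slc22a18, a transporter gene between Cdkn1c and Phlda2, was detected on 4 of 4 untreated and 0 of 4 Ndst1/2-/- arrays and was at least 1.13-fold lower (0.00257). Ins2, Th and Trpm5 were detected on no array.

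**Figure D3:**
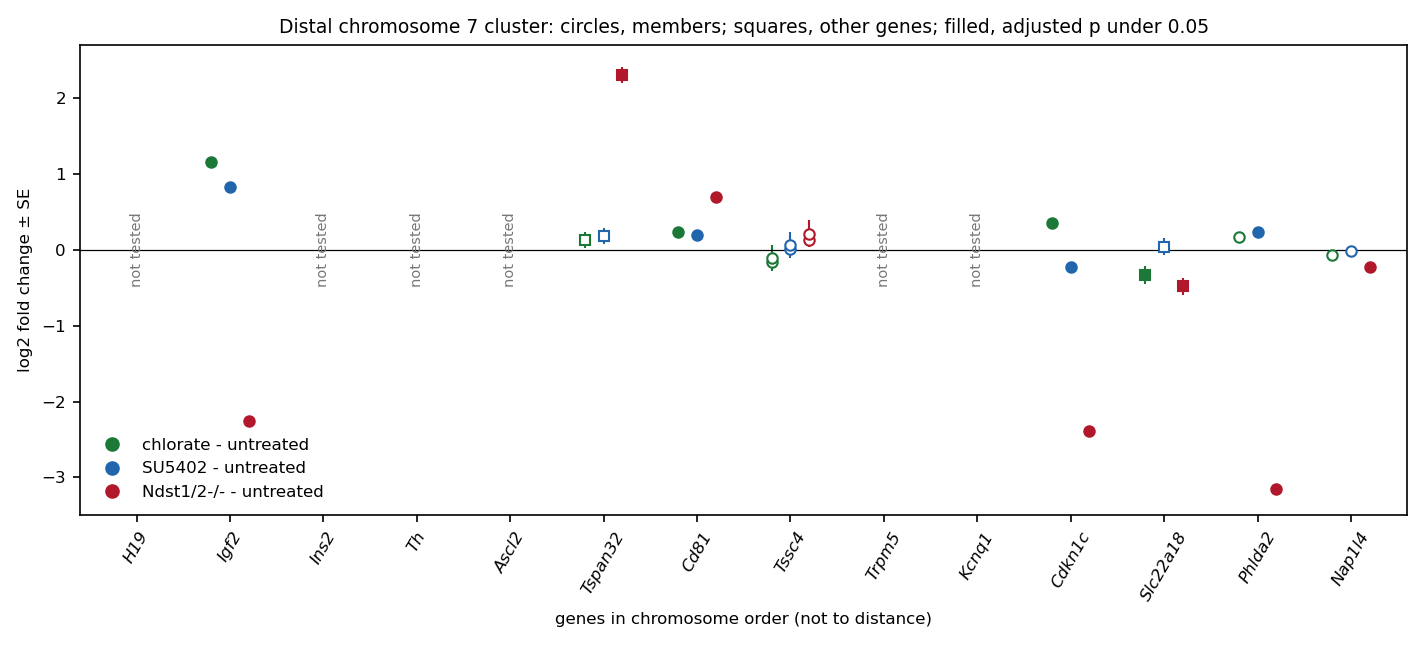
Log2 fold change ± SE against untreated wild type (y axis) for genes of the distal chromosome 7 cluster in chromosome order (x axis, not to distance), for chlorate (green), SU5402 (blue) and Ndst1/2-/- (red); circles are members, squares other genes, filled symbols are called. Igf2, Cdkn1c and Phlda2 were below -2 in Ndst1/2-/- cells, with Cd81 and Tspan32 above 0 between Igf2 and Cdkn1c.

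Placental markers also changed, in both directions in Ndst1/2-/- cells. The summed intensity of 9 trophoblast markers was 3073 to 3182 in untreated cultures, 6495 to 6577 with chlorate, 6600 to 6968 with SU5402 and 2478 to 2596 in Ndst1/2-/- cultures. Elf5, Hand1 and Tpbpa were on no array. Cdx2 and Krt18 were detected in every wild-type group and on no Ndst1/2-/- array. The sum is carried by its brightest probes. Of 8 tested trophoblast probes 5 rose and 0 fell with chlorate by limma (62.5%, against 28.4% of all probes). With SU5402 6 rose and 0 fell (75%, against 23.5%). In Ndst1/2-/- cells 3 (of Gata3 and Tfap2c) rose and 3 (Cdx2, Krt8 and Krt18) fell (75%, against 62.7%). The median log2 fold change of the trophoblast probes there was 0.10. The sum for 12 primitive endoderm markers was 4741 to 4871, 6288 to 6446, 5836 to 5976 and 6994 to 7260 in the same order, with Foxa2 and Sox17 on no array, Gata4 also on no chlorate array, and Gata4, Gata6 and Pdgfra on no Ndst1/2-/- array. Of 13 tested primitive endoderm probes 8 rose and 1 fell with chlorate (69.2%, against 28.4% of all probes). With SU5402 7 rose and 1 fell (61.5%, against 23.5%), and in Ndst1/2-/- cells 7 rose and 5 fell (92.3%, against 62.7%). In Ndst1/2-/- cells Gata6 was at least 1.78-fold lower (limma adjusted p = 3.69e-07), and Col4a1 and Sparc were among those that rose. The part of such cells in the imprinted gene results was not tested, and in bulk RNA a change in the number of cells of a type and in RNA per cell cannot be told apart.

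In the Dlk1-Dio3 cluster of chromosome 12 the 2 tested paternally expressed genes moved apart. Dlk1 (ILMN_1244618), a Notch-like transmembrane protein of growing tissues, read 6.42, 6.55 and 6.28 untreated, 6.18, 5.94 and 5.90 with chlorate, 6.05, 6.17 and 6.14 with SU5402, and 4.41, 4.45 and 4.47 in Ndst1/2-/- cells, where 0 of 4 arrays detected it. It was thus below background in that group and lower in all treated cultures than in all untreated ones. It was at least 2.47-fold lower in Ndst1/2-/- cells (adjusted p = 5.77e-10). With chlorate it fell by 0.41 ± 0.083 (0.00275). The change of -0.30 with SU5402 (0.0213) was lost without untreated replicate 1 or 2 or SU5402 replicate 1 (0.0518 to 0.0854) and with array set as a block (0.0992), and was -0.12 in the dimmer array set alone, where the chlorate call was lost too (0.167).

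Dio3 (ILMN_1221784), a deiodinase that inactivates thyroid hormone, read 5.32, 5.00 and 4.83 untreated, 5.78, 5.76 and 5.73 with chlorate, 5.88, 5.85 and 5.75 with SU5402, and 5.90, 5.50 and 5.39 in Ndst1/2-/- cells. It was detected on 1 of 4 untreated arrays and on 4 of 4 arrays of each other group, all of whose cultures were above the untreated ones. The log2 fold changes were 0.71 ± 0.13 (adjusted p = 0.00137), 0.78 (0.000906) and 0.55 (0.0025). They shrank to 0.39, 0.43 and 0.30 with an added constant of 50, as this weak probe is sensitive to it, and none was called in the brighter array set alone. The transcript 6430411K18Rik, which lies between Rtl1 and Dio3 and was chosen after its values were seen, was detected on 4 of 4 untreated and Ndst1/2-/- arrays and on 0 of 4 arrays of either drug. It was at least 1.34-fold lower with chlorate (8.27e-05) and at least 1.33-fold lower with SU5402 (0.000682).

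Peg3 (ILMN_2677270), a zinc finger gene expressed from the paternal copy on proximal chromosome 7, was higher in all 3 comparisons. It read 5.85, 5.62 and 5.75 untreated, 6.71, 6.38 and 6.72 with chlorate, 6.06, 6.32 and 6.11 with SU5402, and 6.16, 6.19 and 6.24 in Ndst1/2-/- cells. No culture of these groups reached down to the untreated range. The log2 fold changes were 0.86 ± 0.10 (adjusted p = 3.95e-05), 0.42 (0.00887) and 0.46 (0.00148). With a constant of 50 the SU5402 and Ndst1/2-/- values were 0.27 and 0.30, still called. The SU5402 change was 0.25 and not called in the brighter array set alone. Its neighbours Zim1 and Usp29 were detected on no array.

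The Snrpn-Ube3a cluster of central chromosome 7 is the mouse counterpart of the Prader-Willi and Angelman region. There 4 of the 4 tested probes of the paternally expressed genes Snrpn, Ndn and Mkrn3 fell in Ndst1/2-/- cells. In those cells 32.2% of all tested probes were called lower. Of the 6 tested probes of the cluster 1 rose and 4 fell (83.3%, against 62.7% of all probes). With chlorate 0 rose and 2 fell (33.3%, against 28.4%), and with SU5402 1 rose and 2 fell (50%, against 23.5%). Snrpn, which encodes a protein of the splicing machinery and hosts the imprinting centre, also fell with both drugs on both of its probes. Ube3a, the ubiquitin ligase that is imprinted in neurons, had a probe that rose slightly and another that was not called.

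The brighter Snrpn probe (ILMN_1247894) read 12.29, 12.49 and 12.41 untreated, 11.99, 11.99 and 11.89 with chlorate, 11.93, 12.04 and 11.95 with SU5402, and 11.60, 11.62 and 11.52 in Ndst1/2-/- cells. Drug-treated cultures lay between the other groups without overlap. The log2 fold changes were -0.44 ± 0.066 (adjusted p = 0.000284), -0.43 (0.000537) and -0.82 (2.56e-07). The dimmer probe (ILMN_2748091) read 7.31, 7.61 and 7.49 untreated, 6.74, 6.74 and 7.01 with chlorate, 6.87, 7.002 and 6.98 with SU5402, and 6.60, 6.82 and 6.70 in Ndst1/2-/- cells. Its changes were -0.64 ± 0.095, -0.52 and -0.76 (adjusted p 0.00028, 0.00177 and 1.46e-05), and here chlorate and Ndst1/2-/- cultures overlapped.

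Ndn (ILMN_2622374), a growth suppressor of neurons, read 9.75, 9.53 and 9.70 untreated, 9.80, 9.78 and 9.71 with chlorate, 9.78, 9.79 and 9.84 with SU5402, and 8.71, 8.79 and 8.68 in Ndst1/2-/- cells. The Ndst1/2-/- cultures lay far below the rest, the SU5402 cultures lay just above the untreated ones without a call, and Ndn fell in Ndst1/2-/- cells by 0.93 ± 0.065 (adjusted p = 7.02e-08). Mkrn3 (ILMN_2754447), a ring finger gene, read 7.95, 7.78 and 7.77 untreated, 7.78, 7.64 and 7.64 with chlorate, 7.75, 7.87 and 7.80 with SU5402, and 7.15, 7.25 and 7.23 in Ndst1/2-/- cells. In Ndst1/2-/- cells it fell by 0.62 ± 0.068 (4.56e-06) and, like Ndn, was not called with either drug.

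The Ube3a probe ILMN_3155274 was 0.24 ± 0.081 higher both with SU5402 (adjusted p = 0.0482) and in Ndst1/2-/- cells (0.022), although Ndst1/2-/- and untreated cultures overlapped. Both calls depended on single cultures and were lost in either array set alone, and that for SU5402 also under median scaling, with the authors' values and with no detection filter. The Ndst1/2-/- call was lost without untreated replicate 1 or 2 or Ndst1/2-/- replicate 2 or 3 (0.0562 to 0.0901). The SU5402 call was lost without replicate 1 or 2 of the untreated, 2 or 3 of the chlorate, 2 or 3 of the SU5402 or 2 or 3 of the Ndst1/2-/- cultures (0.0502 to 0.171). Probe ILMN_2506499 changed by -0.10 and -0.017 in these comparisons and was not called, so the probes of Ube3a did not give the same call. Magel2 and Peg12 were detected on no array.

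Mest on chromosome 6, a paternally expressed hydrolase gene of the mesoderm, fell on all 3 of its probes in all 3 comparisons. The brightest probe (ILMN_2846904) read 10.25, 10.23 and 10.14 untreated, 9.87, 9.70 and 9.77 with chlorate, 9.88, 9.91 and 9.89 with SU5402, and 9.31, 9.39 and 9.42 in Ndst1/2-/- cells. Its log2 fold changes were -0.43 ± 0.060 (adjusted p = 0.000192), -0.31 (0.00252) and -0.83 (9.5e-08). In each step from untreated through drug-treated to Ndst1/2-/- cells the cultures did not overlap.

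The other Mest probes had the same order from untreated through drug-treated to Ndst1/2-/- cells. ILMN_2642417 read 9.16, 9.03 and 9.12 untreated, 8.67, 8.66 and 8.75 with chlorate, 8.53, 8.57 and 8.77 with SU5402, and 8.18, 8.32 and 8.33 in Ndst1/2-/- cells. ILMN_2642418 read 7.80, 7.73 and 7.69 untreated, 7.21, 7.26 and 7.26 with chlorate, 7.27, 7.25 and 7.44 with SU5402, and 6.91, 7.13 and 7.06 in Ndst1/2-/- cells. Over the 3 probes the change ranged from -0.50 to -0.41 with chlorate, from -0.48 to -0.31 with SU5402 and from -0.83 to -0.71 in Ndst1/2-/- cells. All of the SU5402 calls were lost in the brighter array set alone.

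The Peg10-Sgce cluster of proximal chromosome 6 had genes that fell and rose in Ndst1/2-/- cells. Peg10 (ILMN_3037645), a retrotransposon-derived placental gene expressed from the paternal copy, read 6.87, 6.61 and 6.70 untreated, 6.78, 6.73 and 6.64 with chlorate, 6.64, 6.77 and 6.63 with SU5402, and 5.10, 5.29 and 5.30 in Ndst1/2-/- cells. In Ndst1/2-/- cells it fell by 1.50 ± 0.082 (adjusted p = 6.82e-09), or by 0.97 with a constant of 50, and its drug-treated cultures overlapped the untreated ones (-0.011 and -0.047, not called).

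Ppp1r9a (ILMN_2632092), an actin-binding gene imprinted in placenta with maternal expression, read 7.25, 7.64 and 7.56 untreated, 6.77, 6.82 and 6.88 with chlorate, 7.14, 7.04 and 7.02 with SU5402, and 8.07, 8.12 and 8.21 in Ndst1/2-/- cells. Drug-treated cultures were all below, and Ndst1/2-/- cultures all above, the untreated ones. The log2 fold changes were -0.66 ± 0.090 (adjusted p = 0.000141), -0.42 (0.00483) and 0.65 (3.82e-05). The SU5402 call was lost in the brighter array set alone. Its neighbour Pon2, a lactonase gene from the list of other imprinted genes, changed by -0.87 ± 0.069, -0.66 and -2.18, and Bet1 in the same stretch was not called in any of the 3.

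Among imprinted genes outside these clusters, Grb10 was called with the drugs and Impact and Nnat had the largest changes in Ndst1/2-/- cells. Of 7 tested probes 0 rose and 1 fell with either drug by limma (14.3%, against 28.4% of all probes for chlorate and 23.5% for SU5402), and 0 rose and 6 fell in Ndst1/2-/- cells (85.7%, against 62.7%). Grb10 (ILMN_2518412), an adaptor that restrains insulin and growth factor receptors, read 11.11, 11.13 and 11.16 untreated, 10.79, 10.52 and 10.67 with chlorate, 10.75, 10.62 and 10.81 with SU5402, and 10.67, 10.53 and 10.64 in Ndst1/2-/- cells. All cultures of the last 3 groups lay below the untreated ones and overlapped each other. The log2 fold changes were -0.47 ± 0.076 (adjusted p = 0.000512), -0.41 (0.00197) and -0.52 (5.35e-05).

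Impact (ILMN_2760977), a paternally expressed regulator of the translation kinase GCN2, read 11.19, 11.18 and 11.19 untreated, 11.20, 11.12 and 11.14 with chlorate, 11.23, 11.21 and 11.14 with SU5402, and 9.87, 9.91 and 9.92 in Ndst1/2-/- cells. In Ndst1/2-/- cells it fell by 1.29 ± 0.052 (adjusted p = 3.84e-10), with changes of -0.032 and 0.0037 under the drugs, neither called. Nnat (ILMN_2755578), a paternally expressed proteolipid of developing brain, read 6.39, 6.49 and 6.38 untreated, 6.27, 6.53 and 6.46 with chlorate, 6.002, 6.27 and 6.43 with SU5402, and 4.81, 4.77 and 4.75 in Ndst1/2-/- cells, where 0 of 4 arrays detected it. It was at least 2.47-fold lower there (1.65e-08) and not called with either drug. Its other probe was detected on 1 of 16 arrays.

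Igf2r, the receptor that clears Igf2 protein, was lower in Ndst1/2-/- cells on both probes, with log2 fold changes of -0.24 ± 0.062 and -0.21 ± 0.066 (adjusted p = 0.00437 and 0.0129), and was not called with either drug. Both calls were lost in the brighter array set alone (0.0933 and 0.127), and that of ILMN_2931096 under median scaling (0.0687). Gnas encodes the stimulatory G protein alpha subunit from a locus of several transcripts with different imprinting, and the symbol does not say which of them a probe reads. Its probe ILMN_2632206 changed by -0.29 ± 0.086 in Ndst1/2-/- cells (0.00995, and 0.101 in the dimmer array set alone), and its probe ILMN_1223437 changed by 0.084 and was not called.

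**Figure D4:**
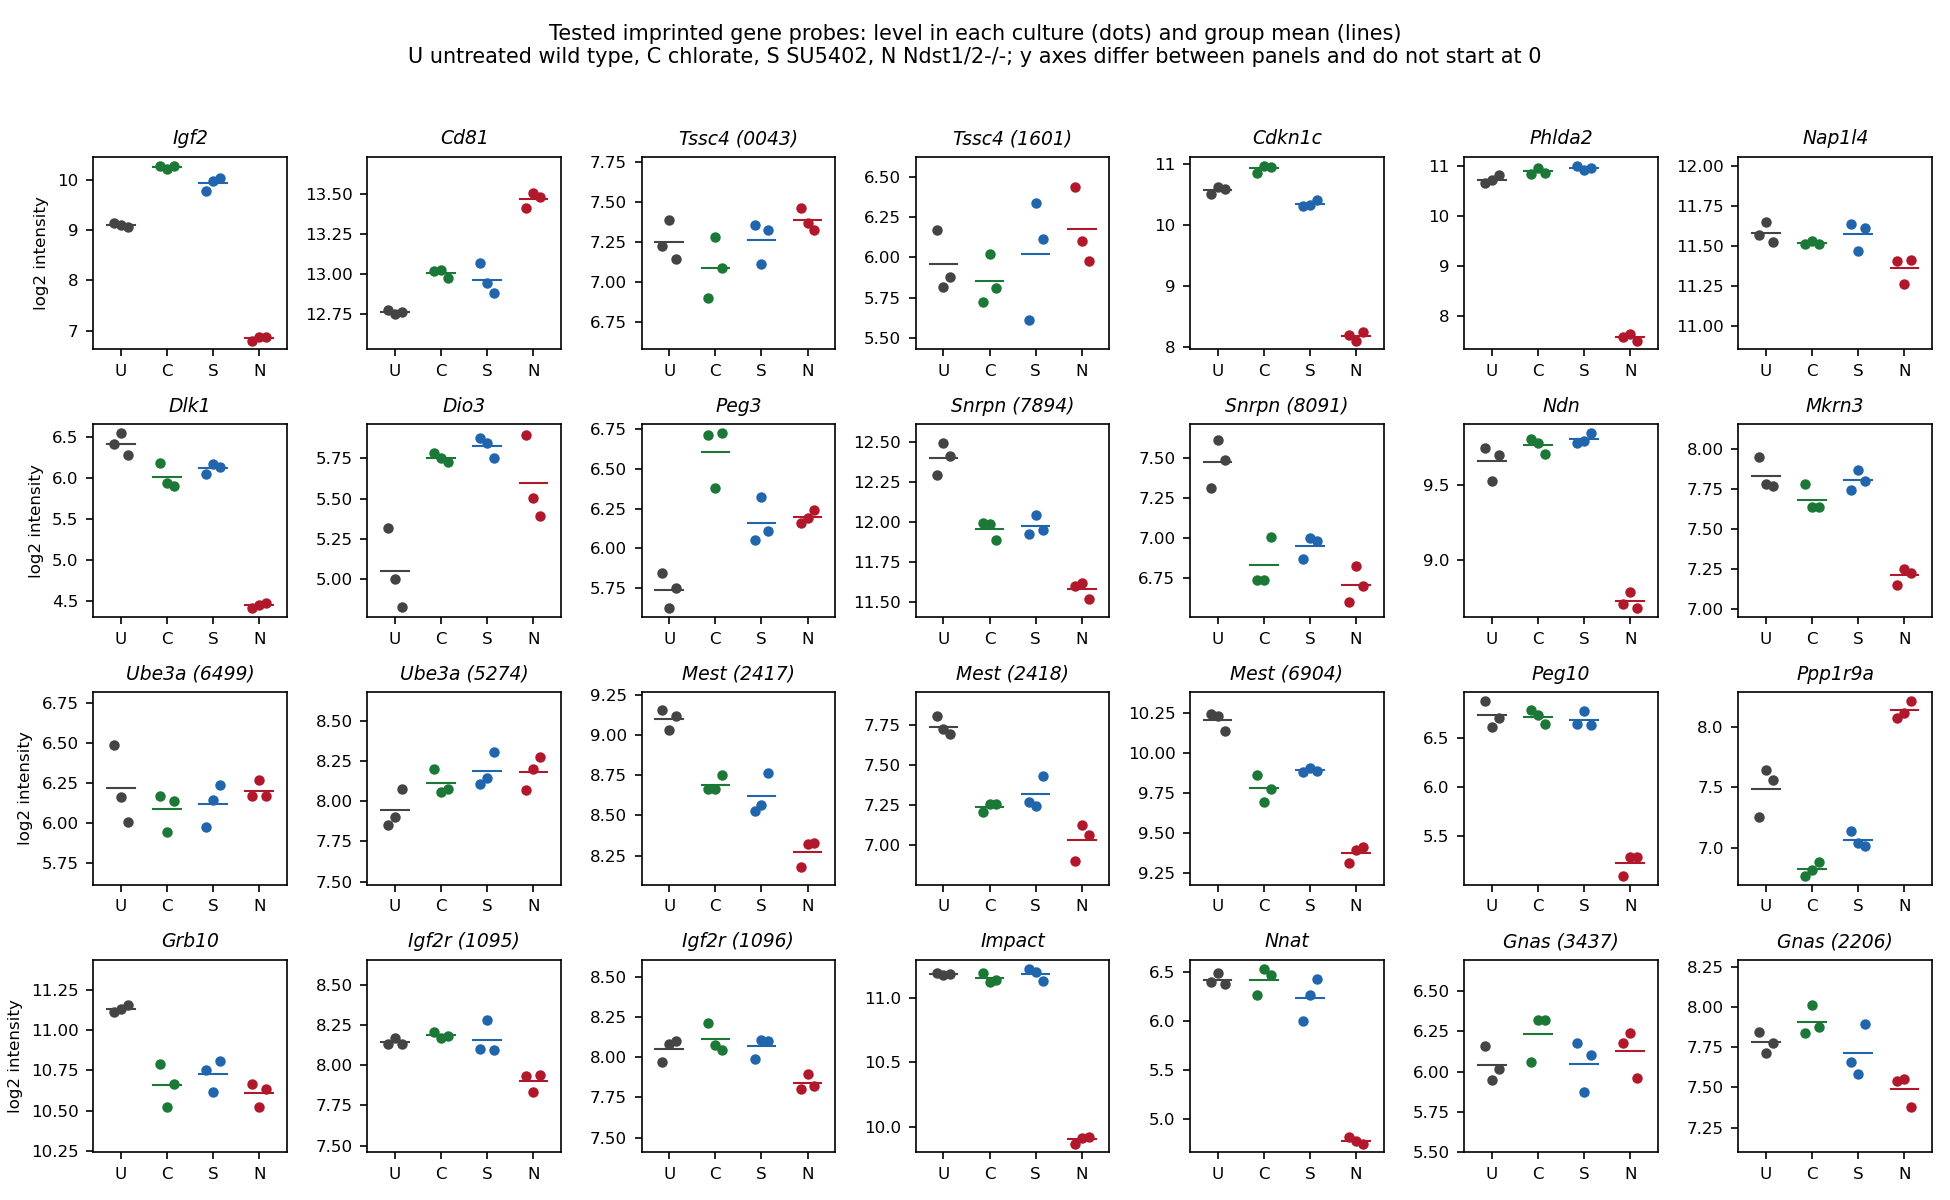
Log2 intensity (y axis) of each of the 28 tested imprinted gene probes in the 12 cultures; dots are cultures, lines are means of 3 cultures, U is untreated wild type, C chlorate, S SU5402 and N Ndst1/2-/-, and y axes differ between panels. For Igf2, Cdkn1c, Phlda2, Peg10, Impact and Nnat the N cultures lie below all others.

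The patterns over the comparisons with untreated wild type can be set side by side, bearing in mind their common control. Of the 28 probes 7 (Dlk1, Grb10, both of Snrpn and the 3 of Mest) were called lower in all 3, and 9 (of Gnas, Igf2r, Impact, Mkrn3, Nap1l4, Ndn, Nnat and Peg10) were called lower in Ndst1/2-/- cells and in neither drug. Igf2 was called higher with both drugs and lower in Ndst1/2-/- cells, and Ppp1r9a the reverse. The share of all tested probes with each pattern was not counted, so no pattern can be called particular to imprinted genes. Taken singly, 14.2% of all tested probes were called lower with chlorate, 11.6% with SU5402 and 32.2% in Ndst1/2-/- cells.

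Chlorate and SU5402 were compared directly to ask where a block of sulfation and a block of FGF receptors give different levels. With SU5402 3 of the 28 probes were lower and 0 higher than with chlorate (10.7%, against 2.54% of all probes, 1.04% higher and 1.5% lower), by limma with Benjamini-Hochberg adjustment, and 5 had an unadjusted p under 0.05. None of the 28 differed by 2-fold, which 0.0374% of all probes did. The log2 difference, SU5402 minus chlorate, was -0.58 ± 0.063 for Cdkn1c (adjusted p = 0.000647), -0.33 ± 0.066 for Igf2 (0.0218) and -0.44 ± 0.10 for Peg3 (0.0385).

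The Igf2 call was lost without any of the chlorate cultures or SU5402 replicate 1 or 2 (0.0539 to 0.0762). That of Peg3 was lost without untreated replicate 3, chlorate replicate 1 or 3, SU5402 replicate 1 or 3, or Ndst1/2-/- replicate 2 or 3 (0.0534 to 0.129), and it was also lost under median scaling, with the authors' values, no detection filter, the replicate block or the first array of replicate 3 only, and was -0.67 in the brighter array set alone. The Igf2 call was lost under median scaling too, and neither those calls nor that of Cdkn1c passed in 1 array set alone. The count fell to 1 without chlorate replicate 1, without chlorate replicate 3 and without SU5402 replicate 1. For the other 25 probes the difference lay between -0.20 and 0.24 and did not pass, which does not show that the drugs act alike on them.

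Loss of Ndst1/2 and chlorate are both used to lower heparan sulfate sulfation, which was not measured here, and their direct comparison asks where gene levels differ. In Ndst1/2-/- cells 3 probes were higher and 17 lower than with chlorate (71.4%, against 58.3% of all probes, 29% higher and 29.3% lower), with a median log2 difference of -0.33 against 0.009 over all probes. Igf2 differed by -3.41 ± 0.066 (adjusted p = 1.4e-12), Phlda2 by -3.31 ± 0.063 (1.16e-12) and Cdkn1c by -2.74 ± 0.063 (4.17e-12). Ppp1r9a was higher in Ndst1/2-/- cells by 1.31 ± 0.090 (7.8e-08). At least 2-fold differences were called for 9 of the 28 probes and for 7.07% of all probes.

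Of the paternally expressed genes, 12 of 14 probes were lower in Ndst1/2-/- than in chlorate-treated cells and 0 higher, the exceptions being Dio3 (-0.16 ± 0.13, adjusted p = 0.321) and a Snrpn probe (-0.12 ± 0.095, 0.292). Dio3 passed without Ndst1/2-/- replicate 1 (-0.31, 0.0405). Grb10 (-0.051 ± 0.076, 0.583) did not differ beyond its error. The calls for Mest probe ILMN_2642418 (-0.21, 0.0233) and Tssc4 probe ILMN_2460043 (0.30, 0.0224) were lost without chlorate replicate 3 or Ndst1/2-/- replicate 1, that of Mest also without chlorate replicate 2 and that of Tssc4 also without chlorate replicate 1 (0.0513 to 0.106). Both were lost in the dimmer array set alone, that of Tssc4 also with the authors' values, and the Mest difference was -0.14 and not called with median scaling. Nap1l4 (-0.16, 0.0536) lay at the threshold: it passed in 7 alternatives, among them offset 50 (0.0322) and leaving out SU5402 replicate 2 (0.0403), and was 0.0016 under median scaling.

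Regulators that set or keep imprints were taken from a list of 22 genes, 17 of which had a tested probe, 26 probes in all. With chlorate 2 of these probes rose and 6 fell (30.8%, against 28.4% of all probes), with SU5402 2 and 6 (30.8%, against 23.5%), and in Ndst1/2-/- cells 11 and 7 (69.2%, against 62.7%), shares near those of all probes, with medians of -0.090, -0.038 and 0.080. Dppa3, which shields imprints in the early embryo, rose by 1.21 ± 0.061 with chlorate (adjusted p = 2.42e-08) and by 1.12 with SU5402 (9.48e-08). It fell by 2.71 in Ndst1/2-/- cells (2.62e-12).

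The de novo methyltransferase Dnmt3b fell on both probes, with log2 fold changes of -0.70 and -0.92 with chlorate, -0.77 and -1.09 with SU5402 and -2.01 on each in Ndst1/2-/- cells. Its cofactor Dnmt3l changed by -0.68 and -0.60 with chlorate, -0.66 and -0.60 with SU5402 and -1.18 and -1.11 in Ndst1/2-/- cells. Dnmt1, the maintenance enzyme, was not called with chlorate (-0.033 ± 0.065) or SU5402 (0.0087) and rose by 0.39 in Ndst1/2-/- cells (adjusted p = 0.000195). Dnmt3a was detected on no array. Methylation itself was not measured.

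A list of 43 other imprinted genes had 16 genes with 21 tested probes. With chlorate 2 rose and 4 fell (28.6%, against 28.4% of all probes), with SU5402 0 rose and 2 fell by limma (9.52%, against 23.5%), and in Ndst1/2-/- cells 8 rose and 10 fell (85.7%, against 62.7%), with a median log2 fold change of -0.17. Inpp5f, an inositol phosphatase gene, fell by 2.36 ± 0.073 in Ndst1/2-/- cells (adjusted p = 4.08e-11), Pon2 fell by 2.18 (4.95e-11), and Xlr4c was at least 2.30-fold lower (5.69e-08). Tspan32, described above, was the strongest to rise.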

How the data were processed

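Total RNA of 12 cultures was read on 16 Illumina bead arrays. The deposited table gives, per the file headers, 1 bead intensity and 1 detection p-value for each of 25697 probes and array, not normalized; export by BeadStudio is named in the submitters' processing notes, with its version not given in the sources used here. A second deposited table holds the authors' processed intensity values, with 53.1% of them at a floor of 20 and every column median at 20; their ranks followed the same arrays, and how they were scaled is unknown.

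Intensities were background-corrected (limma 3.58.1 neqc, R 4.3.3, with detection p-values, an offset of 16 and quantile normalization) and log2 transformed. Both arrays of replicate 3 were averaged. Of 23978 probes with 1 symbol in the platform annotation and 1719 with none, the 13377 with a mean detection p-value under 0.01 in at least 3 cultures entered 1 limma fit of 4 groups, run for 5 comparisons and an F-test, with Benjamini-Hochberg adjustment over all tested probes. The number of arrays limits the precision. The fit was tested on simulated data.

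The members and the lists were chosen with earlier results of these data known. Values of every culture are given for member probes called in at least 1 comparison with untreated wild type with a log2 fold change of 0.5 or more in size; from each other list up to 4 of the largest called changes in a comparison and a few well-known genes are named. The array files name no genome build, so coordinates are given only for RefSeq promoters. Alternatives covered background correction, offset, normalization, filter, replicate block, array sets, the duplicate arrays, 2-group fits, the authors' values and each culture left out; 1 probe per gene was added after seeing the data.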

Additional observations from a re-analysis of the deposited data

How the results depend on the processing

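No called value of an imprinted gene changed direction under any alternative. Of 75 called values 47 kept their call throughout and 28 lost it in at least 1 alternative, among them 4 of 13 for chlorate, 11 of 15 for SU5402, 6 of 24 for Ndst1/2-/-, 3 of 3 between the drugs and 4 of 20 between Ndst1/2-/- and chlorate. Between the drugs the count of 3 became 1 with median scaling and 0 in either array set alone, where limma gave 4 probes with an unadjusted p under 0.05 in each. For SU5402 the count of 15 became 5 in the brighter array set alone. Leaving out 1 culture gave 13 to 14 calls for chlorate, 10 to 15 for SU5402, 22 to 24 for Ndst1/2-/-, 1 to 3 between the drugs, 18 to 21 between Ndst1/2-/- and chlorate, and 22 to 24 in the F-test. With the replicate block the counts were 13, 15, 24, 2, 20 and 24 in the same order, and only the Peg3 call between the drugs was lost. The labels do not say that a number marks a shared origin. Deviations of same-numbered cultures correlated between -0.0094 and 0.19, not above 0.1 in every pair, so the numbers were not taken as pairing the cultures, although 9 of 12 cultures correlated best with their own number, a hint from the data only. Replicates 1 and 2 also lie in different array sets. The cause of these changes was not tested. In an array set alone, the smaller number of arrays and the set itself cannot be told apart. Probes near background, and the 30 below it, are limited by signal.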
